A study of Mus musculus with 4 samples.

Results

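The genes described here run cell division: the cyclins, kinases, centromere proteins, motors and condensins of mitosis, and the licensing factors, clamp and nucleotide enzymes of DNA replication. They were measured in primary mouse hepatocytes, the metabolic cells of the liver, cultured with added non-essential amino acids (NEAA, 2 samples) or as controls (2 samples). Of 60 listed genes, 50 had at least 1 row in the deposited values and were followed, with 146 of the 37363 rows and 50 of the 19284 gene identifiers; levels of the other 10 (Mki67, Top2a, Ccnb2, Ccne2, Birc5, Plk1, Nusap1, Smc2, E2f1 and Cdkn1a) were not analysed here, though their promoters are counted where RefSeq gives one. The members were chosen by gene symbol: 47 listed genes of mitosis (40 with a row, 121 rows), 12 of replication and entry into S phase (10 with a row, 25 rows), and the arrest gene Cdkn1a.

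The study asked how NEAA bear on long non-coding RNA, and its libraries were made for that purpose. Both groups are labelled as liver tissue, with mouse primary hepatocytes as the cell type, and they differ by label in NEAA against control treatment alone. The sources used here give no mouse strain, sex or age, and no NEAA dose, composition or time in culture. No label says whether the samples came from separate animals or cultures, so the spread behind each p-value is that of these samples alone and may be technical. In bulk RNA a change in the number of dividing cells and a change in RNA per cell cannot be told apart. The values are FPKM (fragments per kilobase of transcript, scaled to the fragments mapped) without counts, so depth is unknown. The sum of FPKM over the whole of a sample was 65718 and 60942 in the NEAA samples and 73600.1 and 73376 in the control samples, of which the ribosomal-RNA-like loci Gm26917 and Gm42418 held 46.1% to 49.4% and 50.4% to 52.9%.

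Hepatocytes of the adult liver rarely divide, yet they can re-enter the cell cycle after injury, and many are polyploid because they replicated DNA without completing cytokinesis. In a dividing cell the replication genes are switched on first, at the passage from G1 into S phase, largely through E2F factors. The mitotic genes follow in G2, through the MuvB complex with B-MYB and FOXM1. Once cyclin B with its kinase CDK1 is active, chromosomes condense, kinetochores capture the spindle, the checkpoint holds back anaphase until all are attached, and cytokinesis separates the daughters.

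A row of the deposited values is called a model here. For 49 of the 50 member genes there were as many models as retained-intron transcripts in GENCODE M21 (GRCm38). The models are therefore read here as transcripts annotated as retaining an intron. For a gene with several models the files do not say which transcript each one is. The exception was Tpx2, with 3 models against 2 such transcripts. For 10 member genes there was 1 model and 1 retained-intron transcript. Of their introns 3 are shown because they set the annotated transcript apart from the spliced mRNA. The FPKM cover the whole model, and no value is given for the intron alone. The retained intron makes up 237 of 1778 bases in Oip5-201 and 75 of 526 in Cdc20-202. How fragments from exons were divided between these models and the spliced mRNA is not stated. The part of spliced mRNA in the values was not tested. In 4 of the 10, Ccna2, Kif20a, Kif4 and Ccne1, the annotated exons hold no whole intron between coding exons of the gene's protein-coding transcripts. In each shown, 10 exon bases stand on either side and the capitals mark the splice site bases, GT at the start of the intron and AG at its end. The sequences are from the GENCODE M21 transcripts and run along the gene's own strand.
Oip5, intron of 237 bases, chr2:119617921-119618157, minus strand, in Oip5-201: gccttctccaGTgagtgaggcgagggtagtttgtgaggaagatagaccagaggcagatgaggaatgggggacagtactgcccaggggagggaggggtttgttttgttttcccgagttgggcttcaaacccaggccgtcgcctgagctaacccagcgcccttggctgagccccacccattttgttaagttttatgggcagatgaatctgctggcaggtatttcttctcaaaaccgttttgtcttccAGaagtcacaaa
Cdc20, intron of 75 bases, chr4:118435702-118435776, minus strand, in Cdc20-202: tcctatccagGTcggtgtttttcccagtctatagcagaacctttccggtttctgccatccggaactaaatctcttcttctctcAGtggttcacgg
Rrm2, intron of 239 bases, chr12:24709086-24709324, plus strand, in Rrm2-202: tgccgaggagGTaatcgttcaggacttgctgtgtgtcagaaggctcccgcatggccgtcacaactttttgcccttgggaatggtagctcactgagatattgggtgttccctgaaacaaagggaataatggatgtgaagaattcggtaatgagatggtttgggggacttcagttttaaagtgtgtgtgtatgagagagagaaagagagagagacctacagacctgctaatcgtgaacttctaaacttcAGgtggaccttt
Oip5 helps to prepare the centromere for new CENP-A, Cdc20 activates the anaphase-promoting complex, and Rrm2 is the small subunit of ribonucleotide reductase. Each intron shown lies between coding exons of a protein-coding transcript of its gene in the annotation.

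The mitotic models stood higher in the hepatocytes given NEAA, and the replication models stood close to their control level. Summed over all 121 mitotic models, the level was 135 and 143 FPKM in the NEAA samples, against 45.1 and 41.8 FPKM in the control samples, 3.20-fold higher with NEAA on the means. The 25 replication models summed to 24.7 and 22.7 FPKM in the NEAA samples, against 21.3 and 18.2 FPKM in the control samples, a ratio of the means of 1.20. The mitotic totals of the groups lie far apart, while the lowest NEAA total of the replication genes was just above their highest control total.

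Of the 146 member models, 144 had a mean above 0. On the log2(FPKM + 1) scale, 111 of the 119 mitotic models had a positive difference (NEAA minus control), with a median of 0.49. In 100 of them both NEAA samples were above both control samples, and in 3 both were below. Over all 25076 models with a mean above 0, 48.8% had a positive difference and the median was -0.0033; both NEAA samples were above in 21.8% and below in 23.6% (22.8% and 36% of the 6064 models at 1 FPKM or more). Of the 25 replication models, 17 had a positive difference, with a median of 0.06. In 6 of these the NEAA samples were above and in 3 below, and in 16 the groups overlapped. The added 1 FPKM holds down differences of low models. As a ratio of mean FPKM, over models with no sample at 0, the median was 4.25 for 108 mitotic models, 1.13 for 25 replication models and 0.970 for all 19674 such models.

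**Figure D1:**
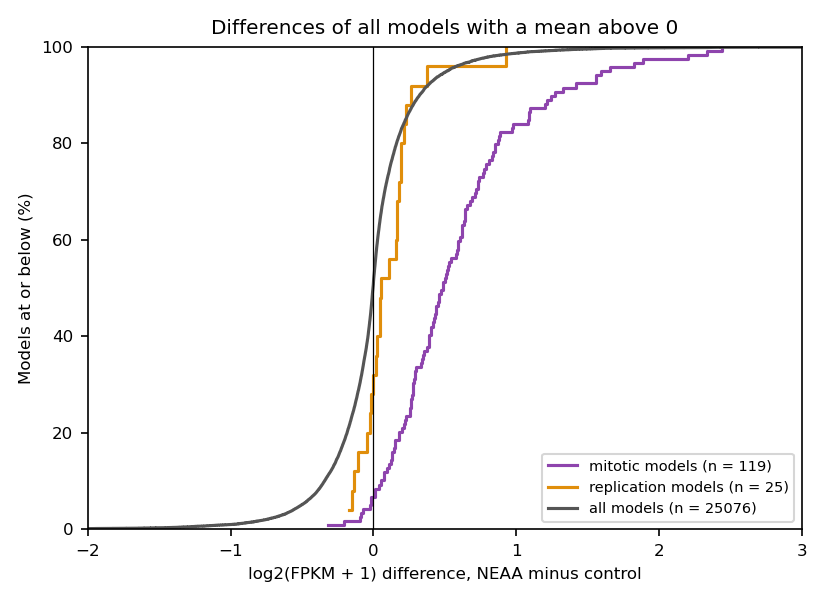
Share of models (%) at or below each difference in log2(FPKM + 1), NEAA minus control, for the 119 mitotic, 25 replication and 25076 of all models with a mean above 0. The mitotic line runs to the right of the others with a median of 0.49, while the replication line stays near that of all models, with a median of 0.06.

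The members were low, and 29 of the 146 models reached a mean of 1 FPKM over the 4 samples and could be tested, 22 mitotic and 7 of replication. Limma on log2(FPKM + 1), with p-values adjusted over all 6064 tested models, called 11 member models (8 genes), all mitotic and all higher with NEAA, against 1.95% of all tested models called higher, 0.956% called lower and 2.9% called either way. When FPKM were summed over the models of each gene, 31 of the 50 members were tested among 4700 gene sums. Of these, 15 rose and 0 fell, all 15 of them mitotic, against 6% of all tested gene sums called higher, 4.11% called lower and 10.1% called either way. Among the 7 tested replication gene sums limma called 0, and 1 of them, Rrm2, had an unadjusted p under 0.05. A model or gene sum that reaches the filter through its NEAA values alone had to differ between groups. Of the called member models only model 1 of Hjurp had a control mean of 1 FPKM or more. Of the called member sums only those of Cenpa, Hjurp and Ncapd2 did. The filter thus favoured these calls, and the counts describe the tested models and sums and not the full list. With any single library left out, limma called 0 member models (14 to 17 at an unadjusted p under 0.05). It called 0 member gene sums without control 1, control 2 or NEAA 1 (19 to 23 at an unadjusted p under 0.05) and 9 without NEAA 2.

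**Figure D2:**
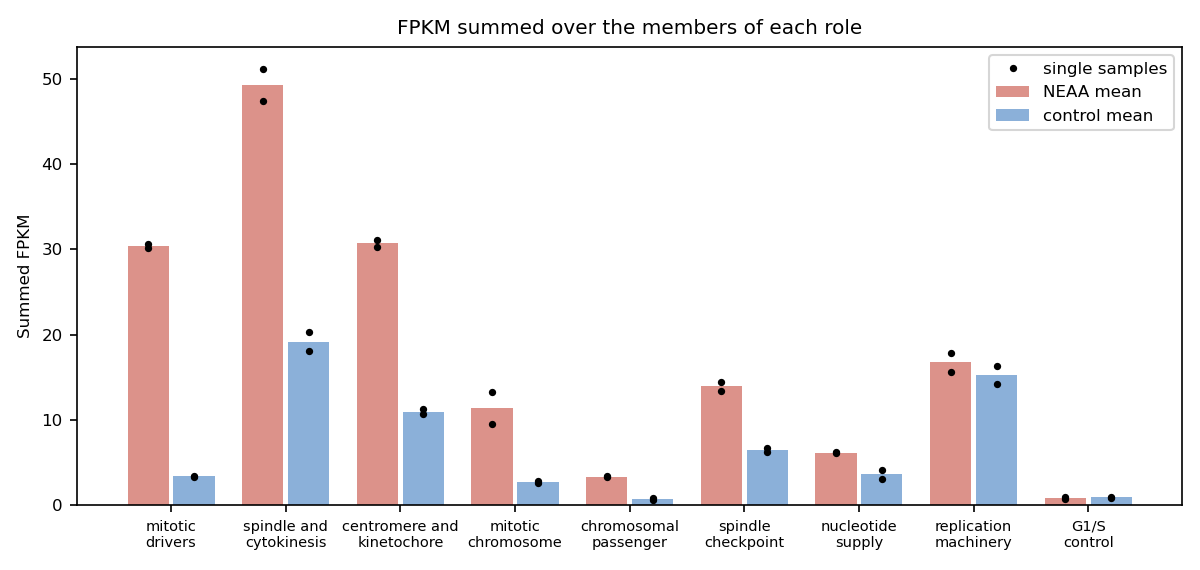
FPKM summed over all models of the members of each role (bars, means of 2 samples; points, single samples; left bars NEAA, right bars control). The mitotic roles are higher in both NEAA samples, by up to 9.06-fold for the drivers, and so is nucleotide supply, by 1.71-fold, while replication machinery and G1/S control overlap between groups.

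The drivers of mitosis differed by 9.06-fold in summed level, the largest ratio among the mitotic roles. Over their 22 models the level was 30.2 and 30.6 FPKM in the NEAA samples, against 3.37 and 3.34 FPKM in the control samples. Cyclin B1 (Ccnb1, ENSMUSG00000041431, chromosome 13), the cyclin that switches on CDK1 at entry into mitosis, summed to 9.97 and 9.86 FPKM in the NEAA samples, against 0.669 and 0.641 FPKM in the control samples. It rose 15.1-fold on the means (log2 fold change 2.72, SE 0.12, limma adjusted p = 0.00654), and its samples were almost equal within each group. Cdca3, which acts in the ubiquitin ligase that degrades the CDK1 inhibitor WEE1, summed to 5.83 and 5.04 FPKM with NEAA against 0.250 and 0.286 in control and rose 20.3-fold (log2 fold change 2.34, SE 0.13, limma adjusted p = 0.00831). Nearly all of the Cdca3 sum was 1 model, the other being at or near 0.

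Cdk1, the kinase itself, and Foxm1, the transcription factor of the G2 programme, were higher in each NEAA sample but spread widely. Cdk1 summed to 6.46 and 2.25 FPKM with NEAA against 0.816 and 0.507 in control (log2 fold change 1.57, adjusted p = 0.0864). Most of that gap came from model 1, at 5.46 FPKM in NEAA 1 and 0.771 FPKM in NEAA 2. Foxm1 summed to 3.39 and 8.16 FPKM with NEAA against 1.00 and 1.11 in control (log2 fold change 1.63, adjusted p = 0.0643), and here model 1 was high in NEAA 2 alone, at 5.22 against 0.563 FPKM in NEAA 1. The libraries that stand out thus differ from gene to gene, and neither gene passed the test.

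The other drivers stayed below the level filter and were not tested. The Aurora kinase gene Aurka, needed for spindle poles, summed to 1.61 and 1.29 FPKM with NEAA against 0.150 and 0.226 in control. Cdc20 measured 0.930 and 1.34 FPKM with NEAA against 0.123 and 0.188 in control, and cyclin A2 (Ccna2) 0.514 and 1.13 FPKM with NEAA against 0.0499 and 0.115 in control. The centrosome kinase gene Nek2 summed to 0.939 and 1.05 FPKM with NEAA against 0 and 0.255 in control, and Cdc25c, the phosphatase that activates CDK1, to 0.551 and 0.515 FPKM with NEAA against 0.310 and 0.0134 in control. In all 9 driver genes both NEAA samples were above both control samples, against 24.3% of the 12256 gene sums with a mean above 0.

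Genes of the spindle and cytokinesis were the largest role, with 45 models of 13 genes. They summed to 47.4 and 51.2 FPKM in the NEAA samples, against 20.3 and 18.1 FPKM in the control samples. Tpx2, which went the other way, held 10.3 and 10.6 FPKM of the NEAA totals and 12.2 and 12.2 FPKM of the control totals. Shcbp1, a partner of the centralspindlin complex at the midbody, summed to 6.28 and 5.13 FPKM in the NEAA samples, against 0.322 and 0.0717 FPKM in the control samples. It rose 29.0-fold (log2 fold change 2.49, SE 0.18, limma adjusted p = 0.0107), the largest ratio among the member gene sums with no sample at 0. Prc1, which bundles the microtubules of the central spindle, summed to 6.89 and 6.81 FPKM with NEAA against 0.864 and 0.675 in control and rose 8.90-fold (log2 fold change 2.15, SE 0.13, limma adjusted p = 0.00831). Both subunits of centralspindlin rose as well. The kinesin Kif23 summed to 5.01 and 4.74 FPKM with NEAA against 0.778 and 0.950 in control (log2 fold change 1.66, adjusted p = 0.0107), and the GTPase activator Racgap1 to 4.54 and 6.76 FPKM with NEAA against 0.694 and 0.554 in control (log2 fold change 2.02, adjusted p = 0.0142).

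Anillin (Anln), the scaffold of the contractile ring, summed to 2.32 and 2.26 FPKM with NEAA against 0.356 and 0.610 in control and rose (log2 fold change 1.15, adjusted p = 0.0212). Ect2, the exchange factor that switches on RhoA at the cleavage plane, summed to 5.84 and 6.20 FPKM with NEAA against 2.98 and 1.30 in control and did not pass (log2 fold change 1.21, adjusted p = 0.0682), although its model 2 rose (log2 fold change 1.24, adjusted p = 0.0454). Its model 1 measured 2.13 FPKM in control 1 and 0.396 FPKM in control 2, which spreads the control sum. Spag5, a spindle protein, summed to 2.54 and 4.91 FPKM with NEAA against 1.48 and 0.888 in control (log2 fold change 1.08, adjusted p = 0.0937).

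Apart from Kif23, the kinesin members were low in every sample. Kif20a, which carries the passenger complex to the midzone, measured 1.31 and 1.37 FPKM with NEAA against 0.144 and 0.0608 in control. Kif2c, which depolymerizes microtubules at kinetochores, summed to 0.893 and 1.16 FPKM with NEAA against 0.0841 and 0.269 in control, and Kif20b to 0.984 and 0.830 FPKM with NEAA against 0.246 and 0.414 in control. Kif11, the motor that separates the spindle poles, and the chromokinesin Kif4 measured at most 0.309 FPKM in any sample. All 5 were higher in both NEAA samples, against 24.3% of the 12256 gene sums with a mean above 0, and none reached the filter.

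Among the centromere genes the histone and its loading factors had the largest differences on the log2(FPKM + 1) scale. As ratios of mean FPKM, at low levels, Cenpf at 12.8 stood above all of them. Cenpn at 6.71 stood above Oip5 and Hjurp, and Cenpe at 3.78 above Hjurp. Cenpa, the histone H3 variant that marks the centromere, summed to 8.76 and 8.81 FPKM in the NEAA samples, against 1.26 and 1.07 FPKM in the control samples and rose 7.52-fold (log2 fold change 2.17, SE 0.13, limma adjusted p = 0.00831). Its chaperone Hjurp was the most abundant of the called members, at 14.6 and 13.7 FPKM with NEAA against 6.40 and 5.86 in control, and rose 2.31-fold (log2 fold change 1.09, SE 0.13, limma adjusted p = 0.0190). Oip5, which acts before the loading of CENP-A, measured 1.83 and 1.64 FPKM with NEAA against 0.281 and 0.294 in control and rose 6.03-fold (log2 fold change 1.09, SE 0.13, limma adjusted p = 0.0186). Its retained-intron exons overlap an exon of Nusap1 on the opposite strand, and whether the counting used strand is not stated.

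The outer kinetochore genes Cenpe, a motor, and Cenpf were below the filter, with sums of 1.12 and 1.22 FPKM with NEAA against 0.362 and 0.258 in control and of 0.754 and 0.941 FPKM with NEAA against 0.0565 and 0.0755 in control. Cenpn summed to 0.582 and 2.002 FPKM with NEAA against 0.342 and 0.0434 in control. Cenpt summed to 2.30 and 2.56 FPKM with NEAA against 1.97 and 2.60 in control (log2 fold change 0.07, adjusted p = 0.794), so that the groups overlapped. Cenpk summed to 0.403 and 0.246 FPKM with NEAA against 0.583 and 0.447 in control, lower in both NEAA samples and below the filter.

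Condensin compacts the chromosomes for mitosis. Its subunit genes Ncapd2 and Ncapg rose as sums, Ncapd2 with 4.49 and 8.004 FPKM with NEAA against 1.40 and 1.46 in control (log2 fold change 1.53, adjusted p = 0.0392) and Ncapg with 2.66 and 3.64 FPKM with NEAA against 0.908 and 0.646 in control (log2 fold change 1.22, adjusted p = 0.0297). Ncaph summed to 2.33 and 1.66 FPKM with NEAA against 0.330 and 0.764 in control without passing (log2 fold change 0.96, adjusted p = 0.0601). Ncapd2 had 10 models, and its model 10 measured 3.81 FPKM in NEAA 2 and 0.344 FPKM in NEAA 1, which accounts for much of the difference between the NEAA sums. Its retained-intron exons overlap the small RNA gene Scarna10 and the sense-intronic Gm28967 on the same strand, and those of Ncapg overlap Lcorl on the other. Gm28967 measured 2.03 and 2.21 FPKM with NEAA against 1.30 and 1.68 in control, higher in both NEAA samples as Ncapd2 was, and was not called (adjusted p = 0.202).

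Aurkb, the kinase of the chromosomal passenger complex, summed to 2.23 and 2.43 FPKM with NEAA against 0.483 and 0.369 in control and rose 5.47-fold (log2 fold change 1.22, SE 0.13, limma adjusted p = 0.0156). None of its 4 models reached the filter alone. Its partner borealin (Cdca8) measured 1.11 and 0.910 FPKM with NEAA against 0.337 and 0.245 in control and was not tested.

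In the spindle checkpoint, Ttk, the kinase at the top of the pathway, summed to 2.67 and 2.54 FPKM with NEAA against 0.232 and 0.157 in control and rose 13.4-fold (log2 fold change 1.59, SE 0.13, limma adjusted p = 0.0107). Bub1b, which codes for BubR1, summed to 1.90 and 2.18 FPKM with NEAA against 0.601 and 0.402 in control and rose (log2 fold change 1.02, adjusted p = 0.0278). Bub1 summed to 1.25 and 1.17 FPKM with NEAA against 0.464 and 0.220 in control, below the filter. Mad2l1, whose product inhibits CDC20, measured 2.18 and 1.59 FPKM with NEAA against 0.908 and 0.658 in control (log2 fold change 0.69, adjusted p = 0.0727). Bub3, which also has a role in splicing outside mitosis, had a high control level and a small difference, with 6.45 and 5.90 FPKM with NEAA against 4.54 and 4.83 in control (log2 fold change 0.34, adjusted p = 0.167).

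**Figure D3:**
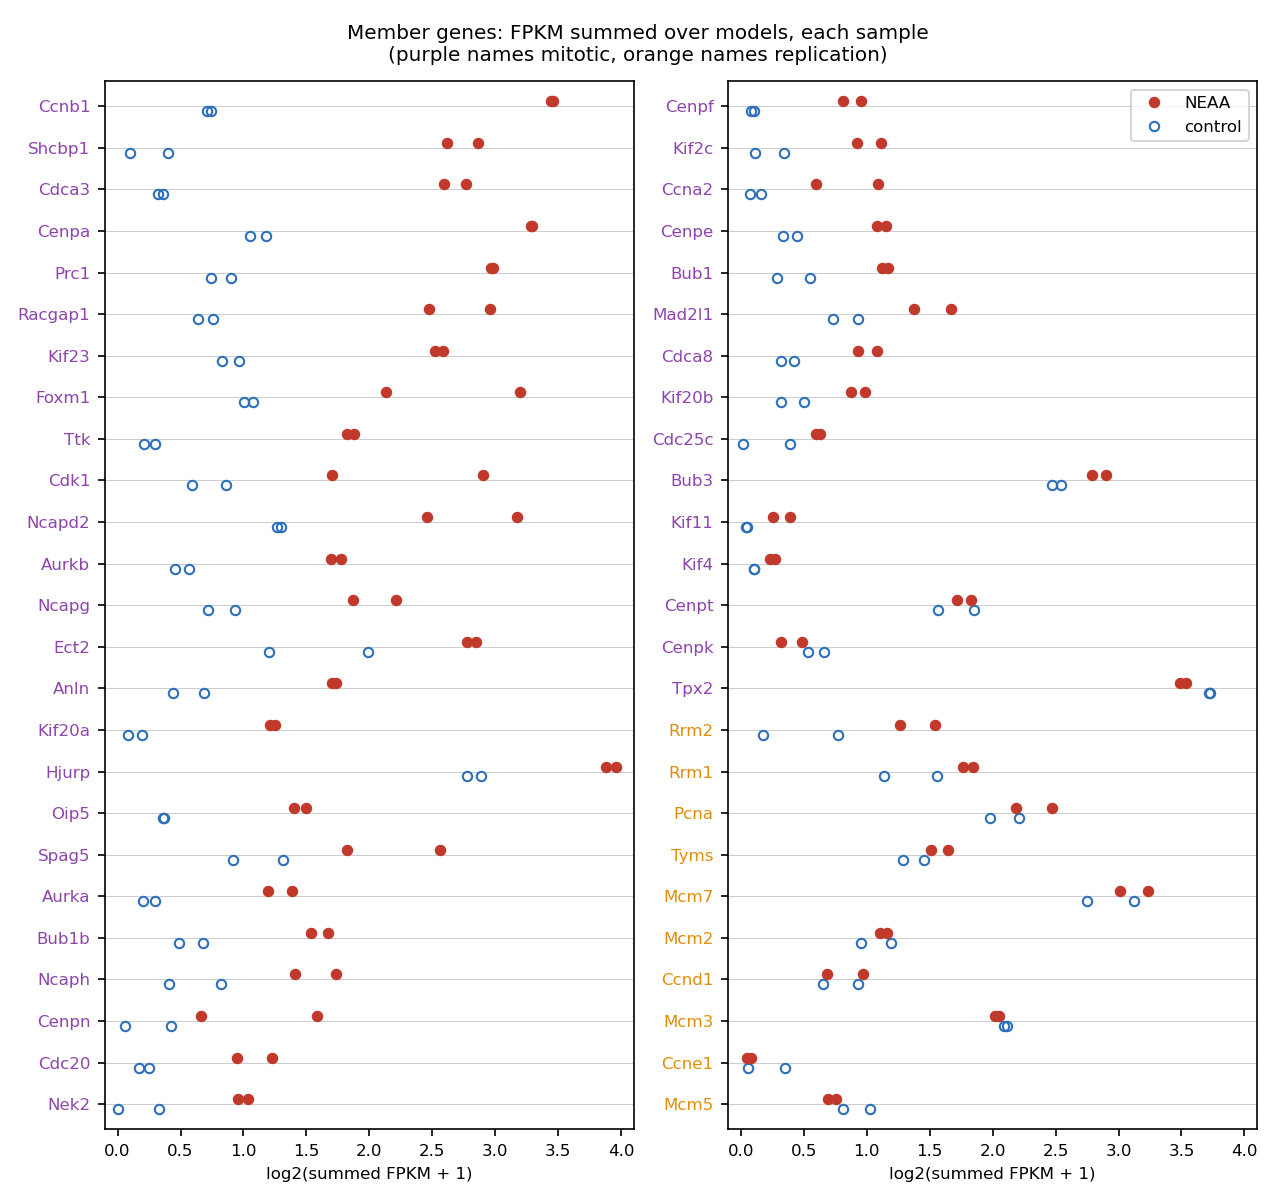
FPKM summed over the models of each of the 50 member genes in every sample, as log2(summed FPKM + 1) (filled points NEAA, open points control; purple names mitotic, orange names replication, ordered by the difference within each class). In 37 of the 40 mitotic genes both NEAA points lie to the right of both control points. Tpx2 and Cenpk lie the other way and Cenpt overlaps. Over all 12256 gene sums with a mean above 0, both NEAA samples were above in 24.3%.

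Tpx2, which activates Aurora A and nucleates spindle microtubules, was the exception among the spindle genes. It summed to 10.3 and 10.6 FPKM in the NEAA samples, against 12.2 and 12.2 FPKM in the control samples and did not pass (log2 fold change -0.21, adjusted p = 0.329). Its model 1 held almost all of that level, at 9.34 and 9.62 FPKM with NEAA against 12.1 and 12.03 in control, the most abundant member model in control. Models 2 and 3 went the other way, at 0.297 and 0.535 FPKM with NEAA against 0.00138 and 0.120 in control and at 0.614 and 0.441 FPKM with NEAA against 0.105 and 0.00884 in control. The gene has 1 model more than it has retained-intron transcripts, and which transcript model 1 stands for could not be told.

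The replication genes gave no call in either direction. Mcm7, a subunit of the helicase that unwinds DNA, summed to 8.42 and 7.05 FPKM in the NEAA samples, against 7.69 and 5.72 FPKM in the control samples, and the groups overlapped (log2 fold change 0.19, adjusted p = 0.539). Among the other helicase subunits Mcm2 summed to 1.15 and 1.24 FPKM with NEAA against 0.939 and 1.28 in control (log2 fold change 0.06, adjusted p = 0.797) and Mcm3 to 3.14 and 3.06 FPKM with NEAA against 3.32 and 3.26 in control (log2 fold change -0.07, adjusted p = 0.730). The sign for Mcm3 turned with rescaling of each sample to an equal sum, to 0.13 with all rows and 0.02 without Gm26917 and Gm42418. Mcm5 summed to 0.617 and 0.691 FPKM with NEAA against 0.758 and 1.04 in control, lower in both NEAA samples and below the filter. Pcna, the sliding clamp of the polymerases, summed to 4.54 and 3.56 FPKM with NEAA against 3.62 and 2.93 in control (log2 fold change 0.24, adjusted p = 0.396). Mcm7 contains the microRNA genes Mir25 and Mir93 on its own strand, and its retained-intron exons overlap Cops6 on the other strand, at 6.77 and 6.12 FPKM with NEAA against 3.99 and 6.56 in control.

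The 3 genes of nucleotide supply were each higher in both NEAA samples, as were 26.2% of all 4700 tested gene sums, and none of the 3 passed. Rrm2 measured 1.92 and 1.40 FPKM with NEAA against 0.709 and 0.128 in control (log2 fold change 0.93, adjusted p = 0.0878). The large subunit Rrm1 summed to 2.40 and 2.58 FPKM with NEAA against 1.95 and 1.20 in control (log2 fold change 0.46, adjusted p = 0.182). Thymidylate synthase (Tyms) summed to 1.85 and 2.12 FPKM with NEAA against 1.44 and 1.74 in control (log2 fold change 0.20, adjusted p = 0.377). Of the G1 cyclins, Ccnd1, the cyclin that growth factors induce, summed to 0.610 and 0.955 FPKM with NEAA against 0.570 and 0.904 in control, and Ccne1 measured 0.0567 and 0.0358 FPKM with NEAA against 0.273 and 0.0378 in control. Both were below the filter and overlapped between groups.

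At the level of gene sums with a mean above 0, 38 of 40 mitotic members and 7 of 10 replication members had a positive difference, against 49.8% of all 12256 such sums. Both NEAA samples were above both control samples in 37 of the mitotic and 3 of the replication members and below in 2 of each, against 24.3% and 24.5% of all 12256 sums, and 26.2% and 34.4% of the 4700 tested sums. The medians were 1.03 and 0.12 on the log2 scale, and -0.00062 over all. As ratios of mean FPKM the medians were 5.46 for mitotic and 1.11 for replication members, against 0.984 over all sums with no sample at 0. The gap between the classes is a description of these genes, whose members were chosen with earlier results known, and it was given no test.

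Within a gene the models mostly went the same way. Of the 32 mitotic genes with more than 1 measured model, 26 had a positive difference in every one, against 4 of 8 replication genes. This was not counted over all genes. Of all 25076 single models with a mean above 0, 48.8% had a positive difference. Models of a gene can share sequence, so their agreement is not independent support. All 4 models of Ccnb1 were higher in both NEAA samples, with model 3 at 4.82 and 3.49 FPKM with NEAA against 0.0688 and 0.153 in control (log2 fold change 2.20, adjusted p = 0.0306) and model 4, below the filter, at 0.832 and 1.16 FPKM with NEAA against 0.0329 and 0.123 in control. Models 2 and 3 of Cenpa both rose, at 4.98 and 5.07 FPKM with NEAA against 0.742 and 0.667 in control and 3.07 and 3.19 FPKM with NEAA against 0.521 and 0.296 in control (adjusted p = 0.0249 and 0.0313 by limma). In Kif23, 6 of 7 models were positive and the other, model 3, measured 0.163 and 0.164 FPKM with NEAA against 0.155 and 0.291 in control. In Racgap1, model 3 carried most of the sum, at 2.82 and 5.25 FPKM with NEAA against 0.505 and 0.160 in control, and did not pass on its own (adjusted p = 0.0658).

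**Figure D4:**
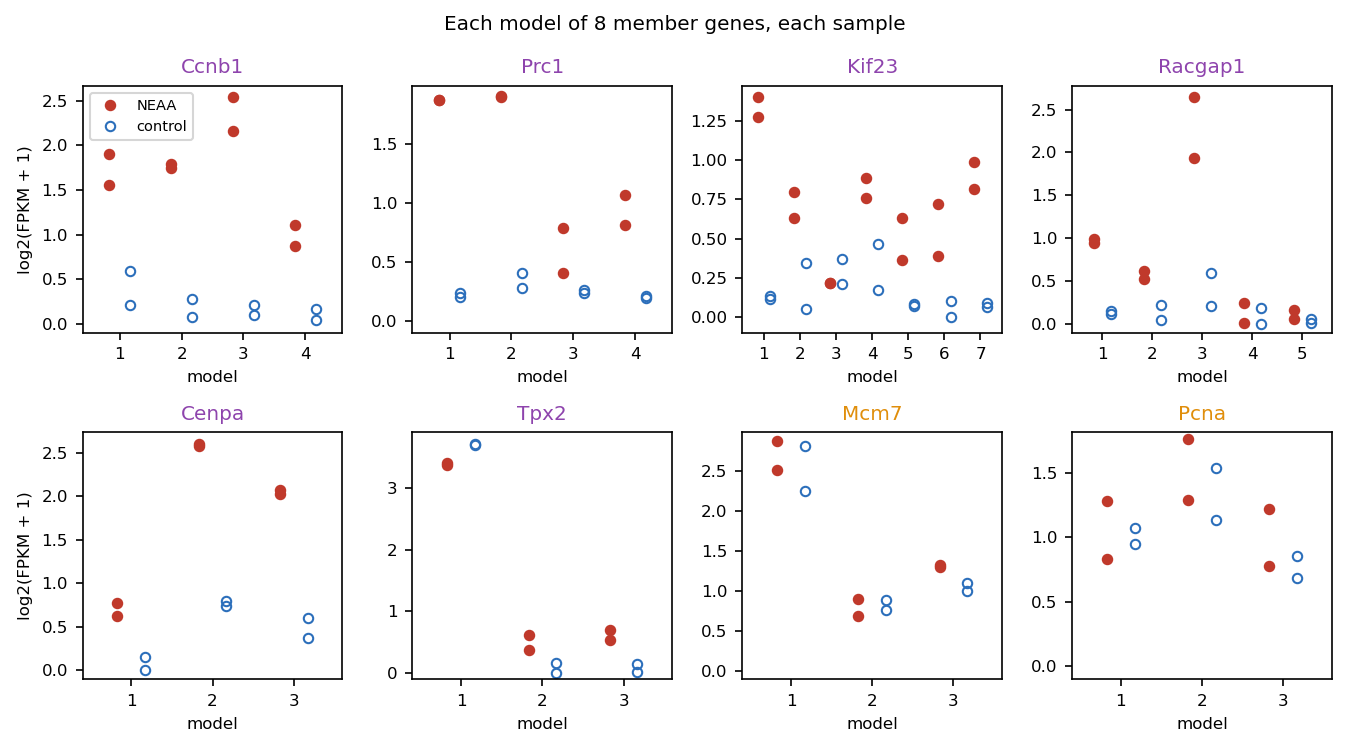
Level of each model, as log2(FPKM + 1), of 6 mitotic genes (purple) and 2 replication genes (orange), with NEAA samples as filled points left of the open control points. The models of Ccnb1, Prc1 and Cenpa separate the groups, model 1 of Tpx2 lies lower with NEAA while its models 2 and 3 lie higher, and those of Mcm7 and Pcna lie close together.

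Some members share sequence with a neighbour. For 7 of the 50 genes a retained-intron exon overlaps an exon of a gene on the opposite strand, Prc1 with Rccd1 among them. Rccd1 summed to 1.89 and 2.16 FPKM with NEAA against 2.67 and 2.79 in control and Lcorl, opposite Ncapg, to 0.330 and 1.18 FPKM with NEAA against 1.53 and 1.44 in control, each lower in both NEAA samples, and neither was called. Cenpt overlaps Tsnaxip1 and Cdc25c overlaps Gm3550 in the same way. Nek2 overlaps the antisense Gm38037, which measured 0.278 and 0.226 FPKM with NEAA against 0.0122 and 0.0221 in control, higher in both NEAA samples as Nek2 was. The part of overlapping genes in these values was not tested.

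Genes of the same pathways outside the members were counted from lists by pathway. Of 100 further mitotic genes, 68 had a gene sum above 0 and 36 were tested. Of these, 9 rose and 0 fell, against 6% and 4.11% of all tested gene sums. The limit that the filter sets on the member counts holds here too. Their median difference was 0.32, with 58 of 68 positive, against 49.8% of all gene sums. The motor genes Kif15, which helps to keep the spindle poles apart, and Kifc1, which focuses them, rose, with 4.83 and 5.10 FPKM with NEAA against 0.806 and 1.17 in control and 2.21 and 2.95 FPKM with NEAA against 0.370 and 0.277 in control (limma adjusted p = 0.0125 and 0.0167). The condensin genes Smc4 and Ncapg2 summed to 4.91 and 4.13 FPKM with NEAA against 1.14 and 1.77 in control and 8.95 and 8.505 FPKM with NEAA against 3.54 and 2.67 in control (adjusted p = 0.0323 and 0.0212). Among the others that rose were Ckap2, Dlgap5 and Troap, genes of the spindle, and Zwilch, of the kinetochore. At the level of single models, 0 of the 38 tested in this list were called by limma, and 16 had an unadjusted p under 0.05.

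Of 63 further replication genes, 30 gene sums were tested and 1 rose, Dbf4, the activator of the kinase that fires replication origins, with 4.66 and 4.67 FPKM with NEAA against 2.22 and 2.09 in control (log2 fold change 0.85, adjusted p = 0.0285). As a share of those tested this call is below the 6% of all gene sums called higher. The median over the 46 measured sums of that list was 0.21, with 35 of them positive, against 49.8% of all gene sums. Both NEAA samples were above both control samples in 24 of the 46 and below in 1, against 24.3% and 24.5% of all gene sums. Of 40 further genes of G1/S control, 14 were tested, 0 rose and 1 fell, the growth-arrest gene Gadd45a, with 4.21 and 4.32 FPKM with NEAA against 10.95 and 10.6 in control (log2 fold change -1.16, adjusted p = 0.0156). In all, 4.11% of tested gene sums were called lower, and 1 call among 14 is too few to set apart from that. The median of the 24 measured sums of this list was 0.09.

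**Figure D5:**
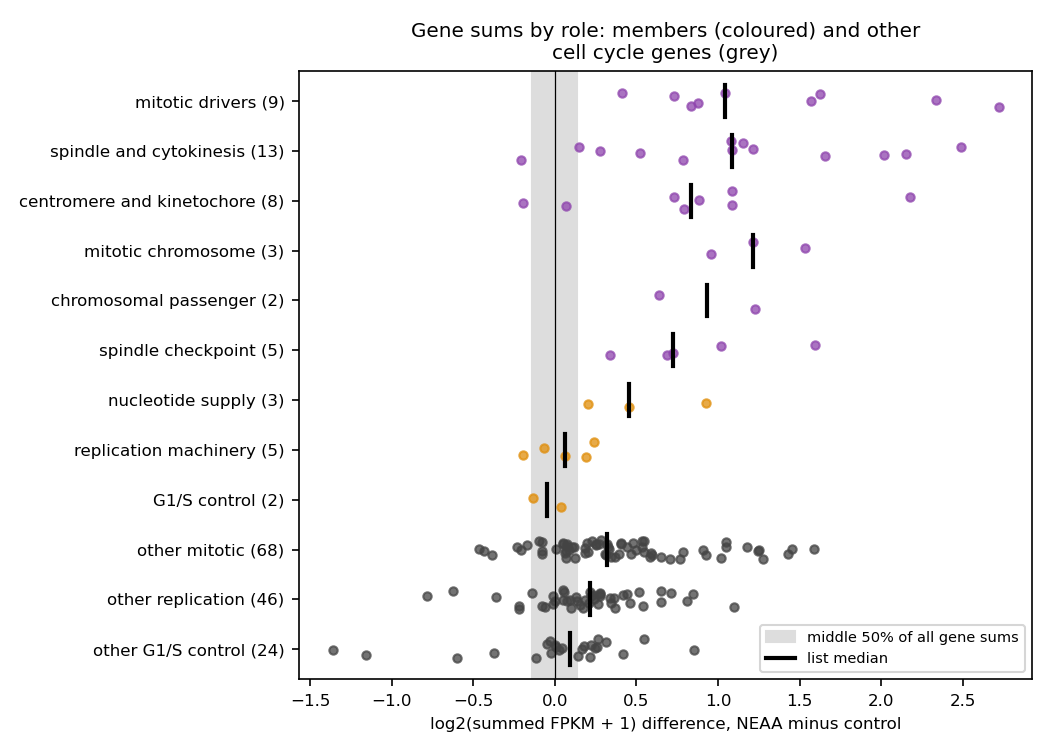
Difference in log2(summed FPKM + 1), NEAA minus control, for each gene with a mean above 0, by role (points, genes; black bars, medians; number of genes in brackets; grey band, the middle 50% of all gene sums). The mitotic roles have medians between 0.73 and 1.22, to the right of the band, as is that of the 3 nucleotide supply genes at 0.46, while replication machinery and G1/S control have medians within it.

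The promoters of the members differ by class in some motifs, which the selection did not use. RefSeq promoters (GRCm38.p6, 250 bases before to 50 after each start) were found for 51 of the 60 members. They were searched on both strands, each motif on its own and overlaps allowed, for the cell cycle gene homology region (CHR, TTTGAA or TTCGAA), at which MuvB binds, for the CCAAT box (CCAAT) of the factor NF-Y, and for an E2F site (TTTNGCGC). Of the members with a promoter, 40 were mitotic and 10 of replication, not all of them with a model. A CHR was present in 31 of these 40 mitotic members and 2 of 10 replication members, against 21.7% of all 27025 genes with a promoter. A CCAAT box, with or without a CHR, was present in 32 of 40 and 7 of 10, against 41.1% of all, and so was common in both classes. A CHR together with a CCAAT box was present in 28 of 40 and 2 of 10, against 8.61% of all. The E2F site was present in 3 of 40 and 3 of 10, against 1.57% of all. In the further lists the CHR was present in 37 of 81 mitotic, 9 of 52 replication and 9 of 32 G1/S genes.

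Of the 15 member genes whose sums rose, 13 had a RefSeq promoter and 12 of these a CHR, the exception being Ccnb1, whose promoter has CCAAT boxes and no CHR in this window. Of the 33 mitotic members with a model and a promoter, 26 had a CHR, so the motif is not particular to the genes that rose. For 8 of the genes that rose the CHR is shown in 30 bases of the gene's strand, with the motif in capitals, because most mitotic members share these letters. Those shown begin between -30 and 31 from the start. Not shown are Anln, with its first CHR at 22, Oip5 at 34, Ncapd2 at -123 and Bub1b, with TTCGAA at -188 and TTTGAA at 41.
Cdca3, chr6:124830194-124830223, plus strand: cgtggagggaagTTTGAAactccgggcttt
Cenpa, chr5:30666890-30666919, plus strand: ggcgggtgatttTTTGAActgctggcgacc
Prc1, chr7:80294434-80294463, plus strand: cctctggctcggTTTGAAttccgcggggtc
Kif23, chr9:61946780-61946809, minus strand: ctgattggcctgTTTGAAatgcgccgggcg
Ttk, chr9:83834684-83834713, plus strand: cagcggggaaatTTCAAAcgtgtttccgga
Racgap1, chr15:99651634-99651663, minus strand: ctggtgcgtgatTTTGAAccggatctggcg
Hjurp, chr1:88277543-88277572, minus strand: tgcgtaaatactTTTGAAagaccctattag
Ncapg, chr5:45669883-45669912, plus strand: ccgcgatagttgTTTGAAaactctggcgct
In Ttk the motif reads on the opposite strand, as TTCAAA. To set a mitotic beside replication promoters, the 100 bases before a start follow for Prc1 and for the replication members of highest level, Mcm7 and Pcna, with CHR and CCAAT letters of either strand in capitals.
Prc1, chr7:80294376-80294475, plus strand: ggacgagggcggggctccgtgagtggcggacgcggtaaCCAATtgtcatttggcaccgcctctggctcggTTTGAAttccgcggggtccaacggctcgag
Mcm7, chr5:138171884-138171983, minus strand: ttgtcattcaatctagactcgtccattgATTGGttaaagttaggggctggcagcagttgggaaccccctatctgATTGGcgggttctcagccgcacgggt
Pcna, chr2:132253181-132253280, minus strand: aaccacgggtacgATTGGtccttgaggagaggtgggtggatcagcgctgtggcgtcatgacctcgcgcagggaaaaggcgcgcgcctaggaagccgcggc
Prc1 has 1 CCAAT box followed by a CHR in this stretch, while Mcm7 has 2 CCAAT boxes, Pcna has 1 and neither has a CHR there. Farther out in the 300-base window Mcm7 has a CHR, TTCGAA at -173 from the start, and an E2F site at 17; with Mcm2 it makes up the 2 replication members that have a CHR. A match is a description of letters, and binding was not measured.

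Cultures of primary hepatocytes can hold other liver cells, and the levels of their markers are given beside these results. Over the 8 endothelial markers, 6 of which had a model, the summed level was 4.02 and 4.71 FPKM in the NEAA samples, against 3.83 and 4.18 FPKM in the control samples. The 8 stellate cell and fibroblast markers, 5 with a model, summed to 1.73 and 1.38 FPKM in the NEAA samples, against 1.41 and 1.24 FPKM in the control samples, and the 8 macrophage markers, 3 with a model, to 1.27 and 2.47 FPKM in the NEAA samples, against 1.23 and 1.44 FPKM in the control samples. Cd163 of macrophages measured 0.744 and 0.778 FPKM with NEAA against 0.403 and 0.473 in control. Lyve1 and Stab2 of endothelium were also higher in both NEAA samples, at no more than 0.334 FPKM. Des of stellate cells summed to 0.398 and 0.429 FPKM with NEAA against 0.248 and 0.192 in control. In the same lists the groups overlapped for 3 endothelial, 2 macrophage and 4 stellate cell and fibroblast sums with a mean above 0. Of these, Pecam1, Col1a2 and Dcn had a negative difference. Over all 12256 gene sums with a mean above 0, both NEAA samples were above both control samples in 24.3%. The models of 5 of 6 lymphocyte markers were at 0 in every sample, and those of cholangiocytes (2 of 6 markers) at or near 0. Of 10 hepatocyte markers 1 had a model, Cyp2e1, at no more than 0.153 FPKM. The labelled cell type could thus not be checked from the values of these models. The part of other cell types in the mitotic difference was not tested.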

How the data were processed

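Per the labels' protocols, Trizol RNA of 2 NEAA and 2 control samples went into libraries made with a New England Biolabs Ultra RNA kit. The authors deposited FPKM for each transcript model; GRCm38/mm10 is given in the submitters' processing notes, and the aligner, quantifier and strand setting were not given in the sources used here. FPKM keep no counts, so depth and counting error are unknown. Models were matched to genes by Ensembl ID through GENCODE M21 (GRCm38), singly and summed per gene. Features whose 4 samples averaged 1 FPKM or more were tested on log2(FPKM + 1) with limma 3.58.1 (R 4.3.3; eBayes with a trend, NEAA over control), with Benjamini-Hochberg adjustment over all 6064 models or 4700 gene sums and a threshold of 0.05. An adjusted p in the text is of this kind. The limma script was tested on simulated data. The smallest p that permuting 2 against 2 samples allows is 0.333. Any member could be named, and of the wider lists the called genes, of which 1 is not reported here. Members, lists and alternatives were chosen with earlier results of these data known. Same-numbered samples did not deviate together (correlation -0.0019 over models and 0.0017 over gene sums), and no label pairs them. Promoters are from RefSeq (GRCm38.p6), intron sequences from GENCODE M21 transcripts. A value of 0 may be a failed estimate. Fold changes on the log2(FPKM + 1) scale understate low models.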

Additional observations from a re-analysis of the deposited data

How the results depend on the processing

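All called member models and gene sums kept their direction under every alternative run; the counts of calls did not. Of the 11 member models called, 7 were called with 0.1 in place of 1 added before the log, 6 after rescaling each sample to an equal sum without Gm26917 and Gm42418, and 0 without the filter on low values (77 at an unadjusted p under 0.05). Calls over all models numbered 176, against 110 after rescaling, 117 after rescaling without those loci, and 0 without the filter (4000 at an unadjusted p under 0.05). Without 1 replicate, calls ranged from 0 to 0 for all models (1076 to 1248 at an unadjusted p under 0.05), 0 to 0 for member models, 0 to 91 for all gene sums (475 with every sample) and 0 to 9 for member gene sums (15 with every sample); 8 of the 9 without NEAA 2 were among the 15. Without the filter 244 gene sums were called in all and 12 of members, 11 of them among the 15, and with a filter of 0.5 FPKM 23 member sums. The cause was not tested.

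The median of the mitotic models (0.49) was 1.61 with 0.1 added, 0.88 and 1.26 with filters of 0.5 and 1 FPKM, 1.94 rescaled and 2.09 rescaled without the loci, and 0.47 to 0.53 without 1 replicate. That of the replication models (0.06) was 0.19, 0.18 and 0.19, 0.39 and 0.30 in the same order, and 0.05 to 0.10. For gene sums the mitotic median (1.03) was 2.09 with 0.1 added, 1.09 and 1.22 with the filters, 0.99 with quantile normalization, 2.39 and 2.35 rescaled, and 0.96 to 1.05 without 1 replicate. The replication median (0.12) was 0.19 and 0.20 with the filters, 0.37 and 0.27 rescaled, and 0.066 to 0.15. The filter of 1 FPKM was added after seeing the data. Rescaling moved the median of all tested models from -0.09 to 0.07 and of all gene sums from -0.06 to 0.13, so part of the rescaled medians is a common shift. It also raised every value, to a sample sum of 1000000 from sums of 60942 to 73600.1, while the number added before the log stayed at 1. The added 1 therefore held low models down less, as with 0.1 added, and the rescaled medians are not an effect of sample scaling alone. Both medians stayed higher for mitotic than for replication members in each alternative.

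Replicate numbers are shared between groups, but the samples share only a number. With a replicate block 0 models were called in all (1323 at an unadjusted p under 0.05) and 0 of the members (16 at an unadjusted p under 0.05), while 185 gene sums were called in all and 11 of the members. Depth is unknown, so limits at low levels cannot be given.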
